A study of Mus musculus with 12 samples.

Results

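The 10 genes described here are the core of the major histocompatibility complex (MHC) class I presentation pathway in the mouse: the heavy chain genes H2-K1, H2-D1 and H2-Q7, the light chain gene B2m, the peptide transporter and loading genes Tap1, Tap2 and Tapbp, the immunoproteasome genes Psmb8 and Psmb9, and the transactivator gene Nlrc5. They were taken by symbol from the feature list of 32285 genes, all 10 were found, and all 10 passed the filter on low counts in the comparisons below. Their unique molecular identifier (UMI) counts, each UMI marking 1 captured transcript molecule, were followed over 12 single-cell RNA libraries of mouse lymph node. The C57BL/6 mice were 7 to 10 weeks old, and mice of every group carried ATG12 fl/fl, a floxed autophagy gene, and were given tamoxifen 5 times. Libraries are labelled positive or negative for CDH5 CreER, a tamoxifen-inducible Cre recombinase driven by an endothelial promoter, so a library labelled Cre-negative comes by its label from floxed mice without the recombinase. The skin of the abdomen received 50 ul of 4% oxazolone, a contact sensitizer, in acetone and olive oil, and lymph nodes were collected on day 3 or day 7. Vehicle mice received the solvents alone, and their day of collection is not given in the labels used here. Day 3 and day 7 are each set against the same vehicle libraries, so these contrasts are not independent of each other. Each of the 6 combinations of treatment and label gave 1 library of cells not held by CD45 beads (CD31 libraries) and 1 library of cells held by them (CD45 libraries). The number of mice behind a library is not given in the sources used here. With 1 library per group, p-values measure the spread between libraries over the other factor, which may be technical.

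Class I molecules carry short peptides of cytosolic proteins to the cell surface, where CD8 T cells and natural killer cells read them. A polymorphic heavy chain pairs with β2-microglobulin, the peptide is cut by the proteasome, whose catalytic subunits are exchanged for Psmb8 and Psmb9 after interferon, and it enters the endoplasmic reticulum through the Tap1-Tap2 transporter, to which tapasin (Tapbp) tethers the empty heavy chain. Nlrc5 is a nuclear regulator without DNA-binding activity of its own that acts at class I promoters through factors bound to a conserved module. In the lymph node, high endothelial venules (HEVs) are the vessels through which lymphocytes enter, and lymphatic endothelium and fibroblastic stroma are known to present antigen.

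The libraries held 36724887 to 76186801 UMIs over all barcodes, and 89054 cells were kept after filters and doublet removal, 46508 in the CD31 libraries and 42546 in the CD45 libraries. Median depth was 3433 to 6193.5 UMIs per cell, and no 2 libraries shared more than 31 barcodes that passed the cell filters. Cells were clustered without the 10 genes and without their related lists, and clusters were named from lists of marker genes. The CD31 libraries gave 24235 blood endothelial-like cells, of which 3249 were HEV-like, with 4794 lymphatic endothelial-like, 261 pericyte-like, 4967 T cell-like and 6001 B cell-like cells. No cluster of fibroblasts was found there, whereas 4 clusters of 8616 cells in the CD45 libraries carried 8 to 10 of 12 fibroblast markers. Clusters 5, 6 and 8 of them also carried 5, 7 and 3 of 10 pericyte markers. Cluster 6 carried 7 of 12 HEV markers as well, and its cells had a median of 2.53 times their library's median UMIs. Col1a1 stood at 2029 to 4686 CPM (the UMIs of a gene scaled to a class sum of 1e6) in the stromal cells. Ptprc, the CD45 gene, stood at 16.8 to 22.7 CPM, against 1132 to 1329 CPM in the CD31 T cell-like cells. These 4 clusters are called stromal clusters here although they came from the bead-held fraction. Atg12, the floxed gene, stood at 52.6, 46.0 and 51.5 CPM in blood endothelial-like cells of the Cre-negative libraries at vehicle, day 3 and day 7. It stood at 74.0, 59.6 and 64.2 CPM in those labelled Cre-positive, so this count was not lower with the label, and groups are named below as labelled. Whether the counted 3′ end lies in the deleted part is not given in the sources used here.

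The promoters of these genes are printed because heavy chain genes and B2m share the element that Nlrc5 acts through, and heavy chain genes also carry one bound by NF-κB. RefSeq windows from 250 bases before to 50 after a gene start (GRCm38.p6) were matched for 8 of the 10 genes, all but Tap2 and Nlrc5. The stretches below run 5′ to 3′ on the gene's strand. Capitals mark the κB site GGGGATTCC and the core GAAANNGAA of the interferon-stimulated response element. They also mark the letters TGACG, found in the X2 box, and ATTGG or its reverse complement CCAAT, found in the Y box.
H2-K1, chr17:34000349-34000463, minus strand: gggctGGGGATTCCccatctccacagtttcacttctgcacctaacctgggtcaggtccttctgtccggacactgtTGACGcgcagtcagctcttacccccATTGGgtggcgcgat
H2-D1, chr17:35262918-35263032, plus strand: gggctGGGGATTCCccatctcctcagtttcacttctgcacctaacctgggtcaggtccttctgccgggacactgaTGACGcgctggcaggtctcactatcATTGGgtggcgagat
H2-Q7, chr17:35439017-35439129, plus strand: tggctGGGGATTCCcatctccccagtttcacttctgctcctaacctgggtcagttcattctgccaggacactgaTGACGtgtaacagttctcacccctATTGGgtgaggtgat
B2m, chr2:122147543-122147648, plus strand: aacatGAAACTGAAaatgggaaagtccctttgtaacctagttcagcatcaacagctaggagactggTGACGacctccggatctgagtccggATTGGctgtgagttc
Tap1, chr17:34187324-34187484, plus strand: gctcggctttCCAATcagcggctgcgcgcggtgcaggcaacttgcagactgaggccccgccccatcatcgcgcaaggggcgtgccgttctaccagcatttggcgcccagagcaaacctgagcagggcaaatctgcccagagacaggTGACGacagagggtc

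Searched on both strands, the κB site was present in the windows of H2-K1, H2-D1 and H2-Q7, and in 0.25% of all 32851 windows. TGACG was in the windows of 6 of 8 members (20.8% of all windows) and CCAAT or ATTGG in 7 of 8 (37.4%). In H2-K1, H2-D1 and B2m ATTGG started 25 bases after TGACG, and in H2-Q7 it started 24 bases after it. That spacing, noticed in these windows and then counted, occurred in 26 of the 32851 windows (0.0791%). It was not found in Tap1, where CCAAT came before TGACG, at -222 and -86 from the gene start. The capitals in Tap1 are therefore letter matches only. GAAANNGAA was found in B2m alone among the members (8.56% of all windows), and TTCNNNGAA, the gamma-activated site, in Psmb8 alone (8.3%). The stretches of H2-K1, H2-D1 and H2-Q7 hold tttcacttc after the κB site, which the pattern GAAANNGAA does not match on either strand. Other forms of the interferon-stimulated response element were not searched, so a window without a match may still hold one. The Tap1 and Psmb9 windows share 275 bases because the 2 genes start back to back on opposite strands. Letters that match are a description of these windows and not evidence of binding.

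Of the 10 genes, 8 lie on chromosome 17 in GENCODE M21 (GRCm38). Tapbp (33915899 to 33929292) and H2-K1 (33996017 to 34000347) come first. Psmb9 (34181987 to 34187764), Tap1 (34187553 to 34197225), Psmb8 (34197721 to 34201454) and Tap2 (34203527 to 34216321) form a compact block. H2-D1 (35262730 to 35267499) and H2-Q7 (35439155 to 35443773) lie farther along. B2m lies on chromosome 2 (122147686 to 122153083) and Nlrc5 on chromosome 8 (94434356 to 94527272). All are protein-coding, and the counts are of transcript 3′ ends. Psmb9 and Tap1 overlap at their 5′ ends, and H2-K1, H2-D1, H2-Q7 and the other H2-Q genes are similar in sequence, so reads of near-identical copies could be shared or discarded in counting, and how strand and multiply mapped reads were treated is not given in the sources used here.

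**Figure D1:**
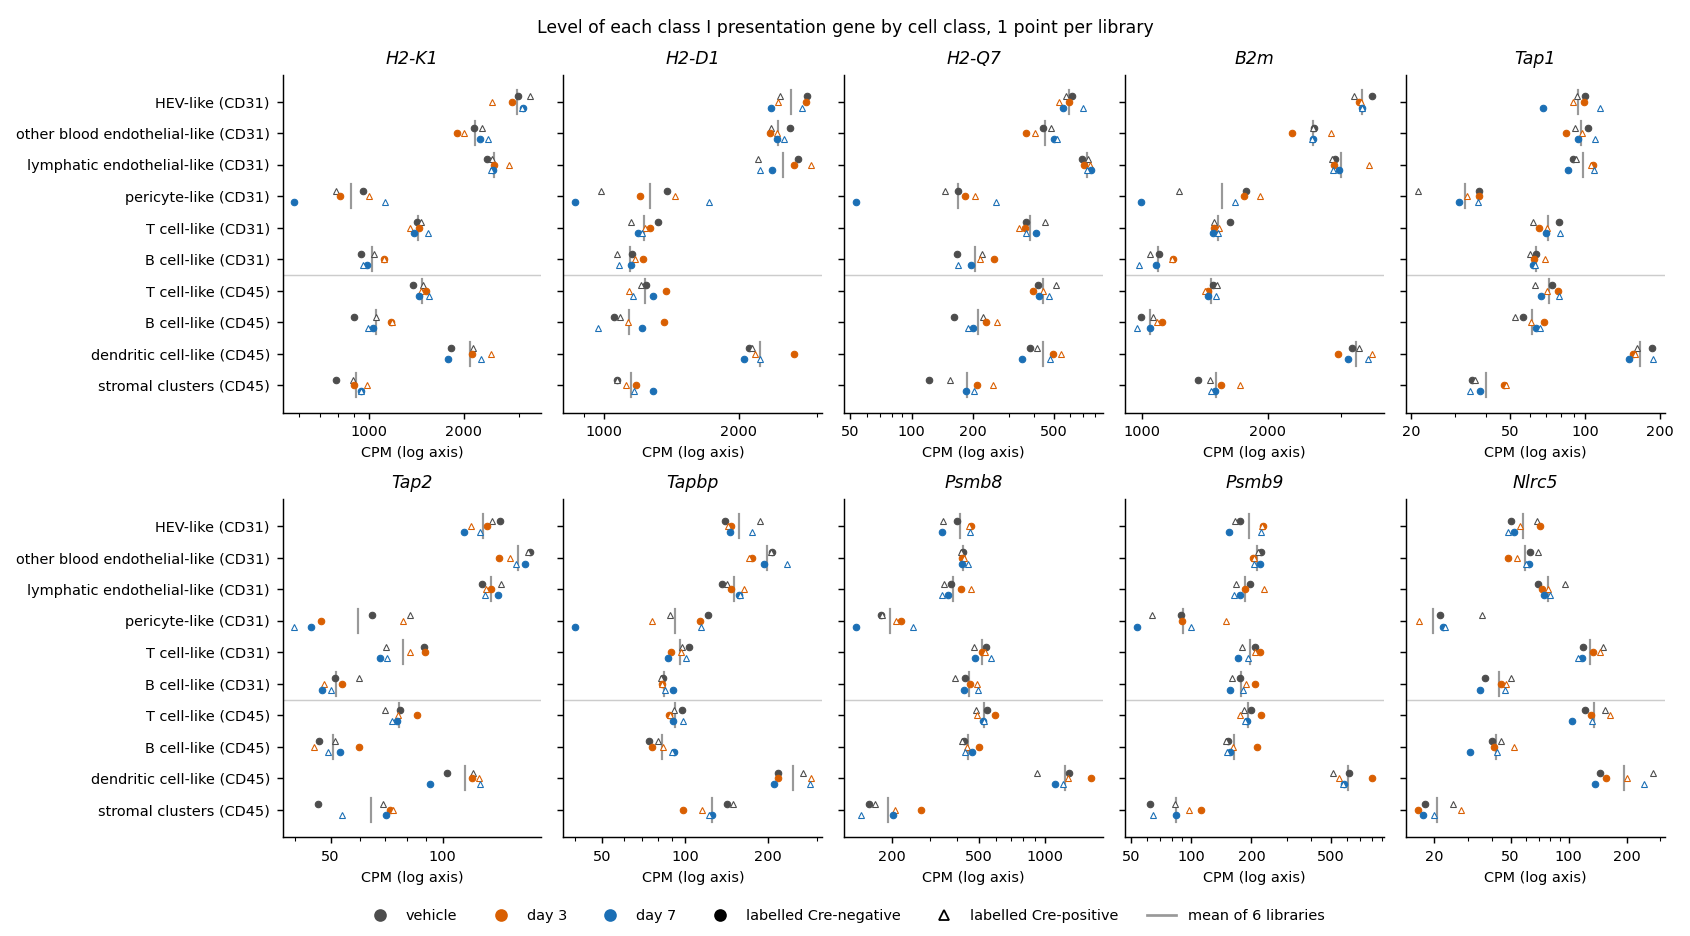
Level of each of the 10 genes (CPM, log axis) in each cell class, 1 point per library, CD31 and CD45 libraries apart. Dendritic cell-like cells sit highest for Psmb8 and Psmb9, while pericyte-like cells and the stromal clusters sit low for most genes; 1 pericyte-like library with Nlrc5 at 0 is off the log axis.

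HEV-like cells carried more H2-K1, H2-Q7 and B2m transcripts than other blood endothelium of the same libraries. H2-K1 in HEV-like cells stood at 2970 and 3235 CPM in the vehicle libraries (labelled Cre-negative, then Cre-positive, an order kept throughout), 2847 and 2454 at day 3 and 3076 and 3064 at day 7. In the other blood endothelial-like cells it stood at 2162 and 2277, 1906 and 1998, and 2257 and 2384 CPM. Every HEV-like value lay above every value of the other cells. The means were 2941 ± 271 against 2164 ± 181 CPM (SD, n = 6 libraries each), a log2 difference of 0.74 (SE 0.0649), with adjusted p = 1.58e-06 by edgeR's quasi-likelihood test with library as a block and Benjamini-Hochberg adjustment.

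B2m, the invariant light chain, was likewise separated in all 6 pairs. It ranged from 3237 to 3569 CPM in HEV-like cells and from 2285 to 2844 CPM in the others, a log2 difference of 0.69 (SE 0.0645, edgeR adjusted p = 2.56e-06). H2-Q7, which encodes the nonclassical molecule Qa-2, ranged from 530 to 694 against 365 to 517 CPM, a log2 difference of 0.70 (SE 0.0631, edgeR adjusted p = 2e-06). By edgeR with trimmed-mean (TMM) scaling 7 of the 10 genes were called higher in HEV-like cells and 0 lower (7 of 10 also at an unadjusted p under 0.05, and 6 by DESeq2), where 61.6% of the 13144 genes tested were called in either direction, 32.1% higher and 29.5% lower. The median log2 difference was 0.26 over the members and 0.00 over all genes.

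Scaling changed the call of 6 of the 10 members and the direction of 4. When libraries were scaled by total UMIs alone, the median of all genes moved by -0.30 on the log2 scale, and the differences of H2-K1, H2-Q7 and B2m were 0.44, 0.40 and 0.39, still called. H2-D1 gave 0.39 by TMM and 0.09 by total UMIs, and lost its call. Tap1, Psmb8 and Nlrc5 were called higher by TMM, at 0.25, 0.23 and 0.26, and changed sign to -0.05, -0.07 and -0.04 by total UMIs. Tap2 and Tapbp were not called by TMM, at -0.02 and -0.04, and were called lower by total UMIs, at -0.32 and -0.34. The Nlrc5 call was also lost without any 1 of 4 libraries (vehicle Cre-positive, either of day 3, or day 7 Cre-negative), at edgeR adjusted p = 0.0553 to 0.0979. The split of called genes moved from 52.1% to 24.9% higher between the scalings. HEV-like cells were also deeper, with median UMIs per cell of 7976 to 10638.5 against 2929.5 to 4371, and the part of depth in these differences was not tested.

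Lymphatic endothelial-like cells differed from blood endothelial-like cells most in H2-Q7. It stood at 687 and 741, 704 and 753, and 765 and 729 CPM in the lymphatic cells. In the blood endothelial-like cells it stood at 472 and 501, 437 and 436, and 521 and 553 CPM. No library overlapped between the classes, and the log2 difference was 0.47 (SE 0.066, edgeR adjusted p = 9.79e-05). Nlrc5 was higher as well, at 69.7 to 95.5 against 54.3 to 69.0 CPM, by 0.28 (SE 0.0617, edgeR adjusted p = 0.00249).

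Tapbp and Tap2 were lower in lymphatic cells. Tapbp was at 136 to 163 against 163 to 223 CPM, a log2 difference of -0.43 (SE 0.0761, edgeR adjusted p = 0.000505), and Tap2 had a log2 difference of -0.29 (SE 0.0586, edgeR adjusted p = 0.00129). These 4 calls held under TMM, relative log expression (RLE) and total UMI scaling. Psmb8 and Psmb9 were called lower by TMM and RLE, at -0.27 and -0.29 by TMM, and were not called by total UMIs, at -0.14 and -0.17. H2-K1, H2-D1, B2m and Tap1 were not called, at -0.04, -0.12, -0.01 and -0.09, and took the opposite sign by total UMIs, at 0.09, 0.01, 0.12 and 0.035. In all, 2 members were called higher and 4 lower by TMM, with 59.6% of the 14189 genes tested called in either direction. Total UMI scaling moved the median of all genes by 0.12 and the share of calls that were higher from 48.4% to 61.5%.

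Pericyte-like cells, the contractile cells that wrap small vessels, carried less of every member. H2-K1 stood at 958 and 786, 809 and 1000, and 581 and 1124 CPM, against 2116 to 2547 CPM in blood endothelial-like cells. The highest pericyte-like library was below the lowest endothelial one, with a log2 difference of -1.55 (SE 0.163, edgeR adjusted p = 8.33e-07). All 10 genes were called lower, from -0.96 for B2m to -1.66 for Nlrc5, under TMM, RLE and total UMI scaling, where 21.4% of 13183 genes were called lower and 36.8% in either direction. The median log2 difference was -1.38 over the members and -0.15 over all genes. The class rests on 26 to 53 cells per library and also carried 10 of 12 fibroblast markers. Nlrc5 was listed at 0 in 1 of its libraries (day 3, Cre-negative).

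**Figure D2:**
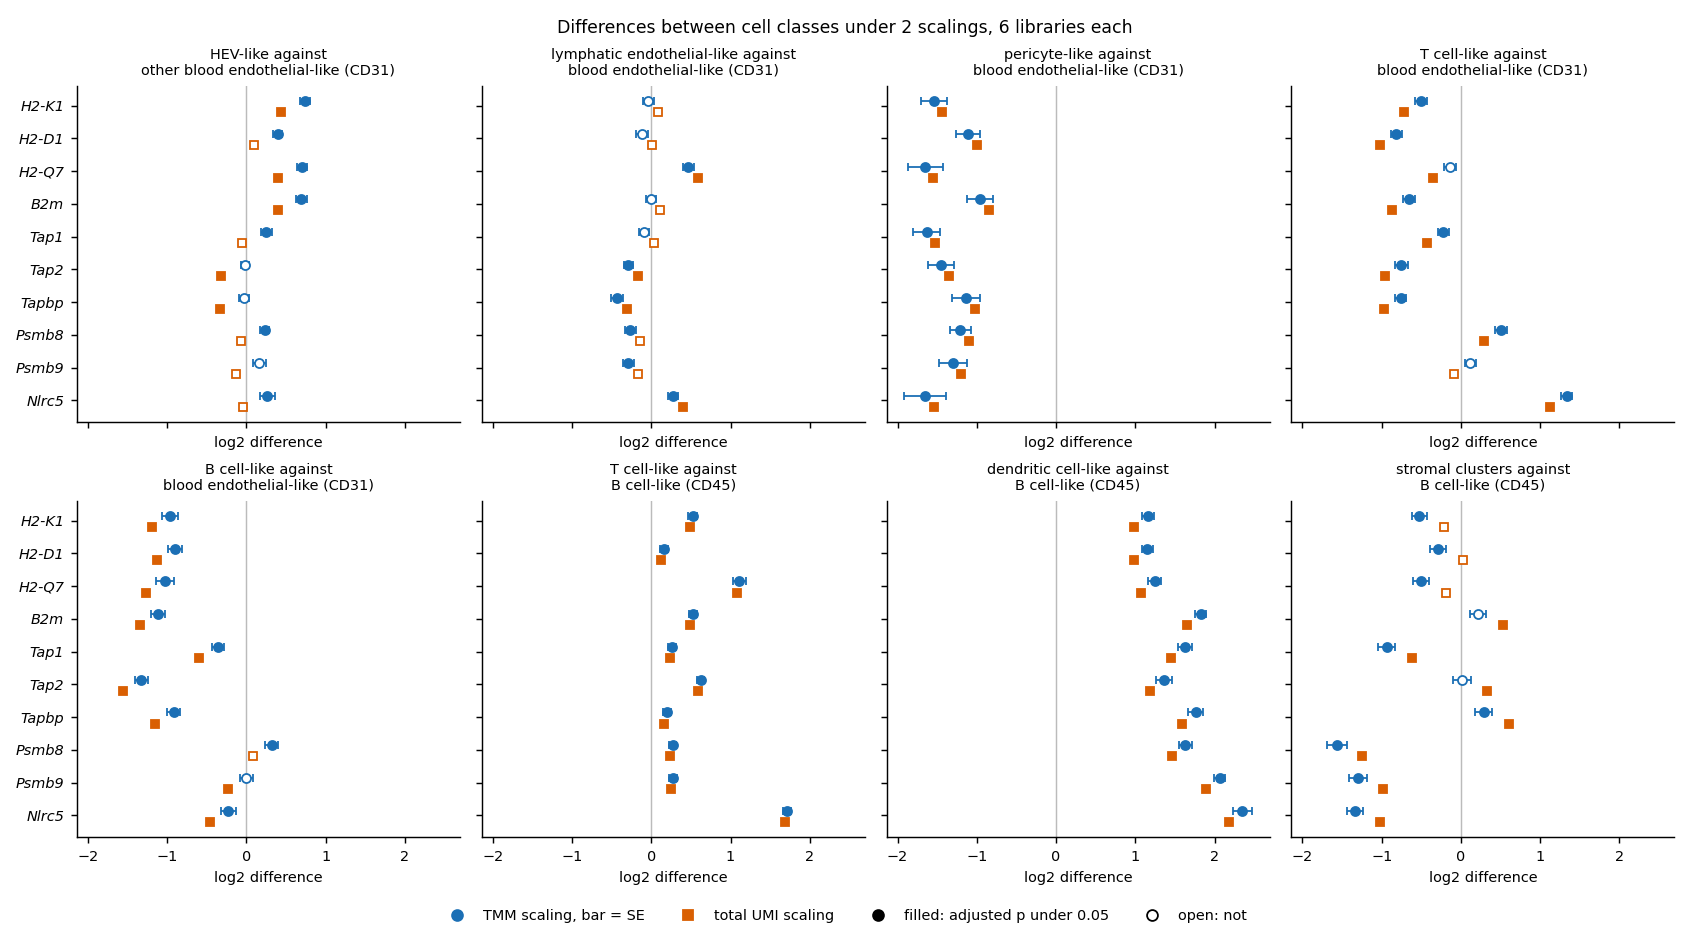
Log2 difference between cell classes for each of the 10 genes (edgeR, TMM scaling), with bars of 1 standard error and filled points for adjusted p under 0.05. Pericyte-like cells lie below 0 and dendritic cell-like cells above 0 for every gene, while by total UMI scaling the sign turns for Tap1, Psmb8, Psmb9 and Nlrc5 (HEV-like), H2-K1, H2-D1, B2m and Tap1 (lymphatic), Psmb9 (T cell-like against blood endothelial-like) and H2-D1 (stromal).

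T cell-like cells in the CD31 libraries had more Nlrc5 and less H2-K1, H2-D1 and B2m than blood endothelium. Nlrc5 stood at 119 and 151, 134 and 145, and 118 and 112 CPM in T cell-like cells, against 54.3 to 69.0 CPM in blood endothelial-like cells. The ranges did not touch, and the log2 difference was 1.33 (SE 0.0721, edgeR adjusted p = 3.54e-09). H2-D1 ranged from 1146 to 1318 against 2382 to 2649 CPM, a log2 difference of -0.82 (SE 0.0726, edgeR adjusted p = 4.68e-07).

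The other T cell-like calls were spread over the pathway. Psmb8 was called higher, by 0.50, and Tapbp, Tap2, B2m, H2-K1 and Tap1 were called lower, from -0.76 to -0.22, each under all 3 scalings. That made 2 members higher and 6 lower, where 78.0% of the 13801 genes tested were called, 35.4% higher and 42.7% lower. H2-Q7 was not called by TMM (-0.14) but was called lower by total UMIs (-0.35), by DESeq2 and in 3 other alternatives. Psmb9 was at 0.12 by TMM and at -0.09 by total UMIs, called in neither, and was called higher without day 7 Cre-negative (0.20, edgeR adjusted p = 0.0404).

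B cell-like cells of the CD31 libraries lay below blood endothelium for most members. Tap2, one subunit of the peptide transporter, stood at 47.5 to 59.7 CPM against 138 to 166 CPM, a log2 difference of -1.33 (SE 0.0768, edgeR adjusted p = 6.13e-10). B2m, H2-Q7, H2-K1, Tapbp and H2-D1 were lower by log2 differences of -1.11, -1.03, -0.97, -0.92 and -0.90. With Tap1 (-0.36) and Nlrc5 (-0.23) these were 8 genes called lower under all 3 scalings, where 79.4% of 13670 genes were called in either direction and 42.6% lower. Psmb8 was called higher by TMM and RLE (0.32 and 0.25) and not by total UMIs (0.09) or without the filter on low counts (0.20, edgeR adjusted p = 0.0686), and Psmb9 was not called by TMM (0.00) but was called lower by total UMIs (-0.23). The call of Nlrc5 was lost without doublet removal and without either of 2 libraries, vehicle Cre-negative or day 7 Cre-negative, at edgeR adjusted p = 0.164, 0.124 and 0.148.

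Both lymphocyte classes appear in both bead fractions with like levels. H2-K1 stood at 1353 to 1536 CPM in CD31 T cell-like cells and at 1381 to 1557 CPM in those of the CD45 libraries. In B cell-like cells it stood at 947 to 1120 and at 901 to 1182 CPM. The 2 ranges within each lymphocyte class overlapped for every member. In macrophage-like cells, also found in both fractions, Psmb9 did not overlap, at 401 to 500 CPM in CD31 and 204 to 374 CPM in CD45 libraries. Their other members overlapped. RNA in empty droplets (barcodes of at most 100 UMIs) held H2-K1 at 1749 to 2561 CPM in the CD31 libraries and 1046 to 1536 CPM in the CD45 libraries. Its part in the class levels was not tested.

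Among bead-held cells, every member was higher in T cell-like than in B cell-like cells. Nlrc5 showed the widest gap, at 121 and 155, 130 and 164, and 105 and 133 CPM in T cell-like cells. In B cell-like cells it stood at 40.2 and 44.8, 40.8 and 52.3, and 30.8 and 42.3 CPM. Even the lowest T cell-like library was above the highest B cell-like one, and the log2 difference was 1.72 (SE 0.0498, edgeR adjusted p = 9.33e-13). H2-Q7 followed, at 396 to 511 against 162 to 263 CPM, a log2 difference of 1.11 (SE 0.0815, edgeR adjusted p = 2.54e-08).

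The remaining 8 members were higher in T cell-like cells by log2 differences of 0.16 to 0.62. All 10 were called under the 3 scalings, where 36.7% of 12225 genes were called higher and 69.9% in either direction. The median was 0.40 over the members and 0.02 over all genes. The smallest difference, that of H2-D1, was not called without the library block (edgeR adjusted p = 0.176) or without 3 of the libraries in turn: vehicle Cre-negative, day 7 Cre-negative and day 7 Cre-positive (0.0506, 0.0674 and 0.0511).

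Dendritic cell-like cells, the professional antigen-presenting cells of the node, carried more of every member than B cell-like cells when their 2 clusters were summed. Psmb9 stood at 619 and 514, 806 and 552, and 585 and 577 CPM, against 150 to 213 CPM in B cell-like cells. That is a log2 difference of 2.07 (SE 0.0703, edgeR adjusted p = 2.24e-11), with no overlap. B2m ranged from 2947 to 3570 against 970 to 1113 CPM, a log2 difference of 1.82 (SE 0.0722, edgeR adjusted p = 9.62e-11). All 10 were called higher under the 3 scalings, from 1.15 for H2-D1 to 2.35 for Nlrc5, where 35.8% of 11225 genes were called higher and 73.2% in either direction. The median was 1.63 over the members and -0.05 over all genes.

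The 2 dendritic clusters of the CD45 libraries were unlike each other. One had Ccl22, a chemokine of migratory dendritic cells, among its top genes. In this Ccl22 cluster mean H2-K1 was 2782 ± 253 CPM and mean Nlrc5 272 ± 84.2 CPM (SD, n = 6). In the cluster with Xcr1, the receptor that marks conventional type 1 dendritic cells, they were 834 ± 119 and 51.0 ± 11.9 CPM. The immunoproteasome genes did not follow that order: Psmb9 averaged 525 ± 58.4 CPM in the Ccl22 cluster and 763 ± 165 CPM in the Xcr1 cluster. Against B cell-like cells, the Xcr1 cluster overlapped in H2-K1, H2-D1, H2-Q7, B2m and Nlrc5. Its mean was the lower one for H2-K1 (834 against 1057 CPM) and H2-Q7 (159 against 212 CPM). Its Tap1, Tap2, Tapbp, Psmb8 and Psmb9 lay above the B cell-like range in every library, and so did each member in the Ccl22 cluster. The share of all genes that did so was not counted. These values describe 950 and 245 cells and were not tested. Median UMIs per cell were 6252 to 11191 in the Ccl22 cluster and 13288 to 26536 in the Xcr1 cluster, against 2504 to 4277 in B cell-like cells. A lower CPM is a smaller share of a class's UMIs and need not mean fewer transcripts per cell. The part of depth was not tested.

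The stromal clusters were lowest among the bead-held classes for the immunoproteasome genes and Nlrc5. Psmb8 stood at 158 and 168, 273 and 208, and 203 and 145 CPM, against 420 to 502 CPM in B cell-like cells, a log2 difference of -1.56 (SE 0.13, edgeR adjusted p = 3e-07). Nlrc5 stood at 18.01 and 25.2, 16.4 and 27.5, and 17.5 and 20.1 CPM, all below the B cell-like range of 30.8 to 52.3 CPM. Its log2 difference was -1.33 (SE 0.101, edgeR adjusted p = 1.34e-07). Psmb9 (-1.30) and Tap1 (-0.94) were also lower and Tapbp (0.29) was higher, each under all 3 scalings.

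By TMM 7 members were called lower and 1 higher in the stromal clusters, where 83.3% of 14152 genes were called. The other calls moved with the scaling, which shifted the median of all genes by 0.22 (RLE) and 0.31 (total UMIs). H2-K1 and H2-Q7 were called lower by TMM (-0.52 and -0.50) and not by total UMIs (-0.21 and -0.19). H2-D1 was called lower by TMM (-0.29) and stood at 0.02 by total UMIs. B2m was not called by TMM (0.21) and was called higher by RLE and total UMIs (0.43 and 0.53), as was Tap2 by total UMIs (0.01 by TMM, 0.33). The call of H2-D1 was lost and B2m was called higher when vehicle Cre-positive or either day 3 library was left out, while H2-D1 and Tapbp lost theirs without vehicle Cre-negative (edgeR adjusted p = 0.0596 and 0.0884). The share of called genes that were higher went from 49.2% to 56.2% and 59.7%.

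Transcripts of inducible and constitutive proteasome subunits were compared as a ratio of UMIs within a cell class, which no scaling changes. Psmb8 replaces Psmb5 and Psmb9 replaces Psmb6 in the assembled particle, whose makeup these counts do not measure. The ratio of Psmb8 to Psmb5 UMIs was 1.19 to 1.79 in the stromal clusters and 0.91 to 1.49 in pericyte-like cells over the 6 libraries. It was 2.69 to 3.71 in blood endothelial-like, 2.67 to 4.10 in lymphatic endothelial-like, 3.88 to 4.99 in bead-held T cell-like and 4.11 to 4.93 in bead-held B cell-like cells. Bead-held dendritic cell-like cells reached 8.44 to 10.9. The ratio of Psmb9 to Psmb6 UMIs was 0.425 to 0.667 in the stromal clusters, 1.13 to 1.55 in blood endothelial-like cells and 3.78 to 5.37 in dendritic cell-like cells. For both ratios the ranges of the stromal, endothelial and dendritic classes did not overlap.

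**Figure D3:**
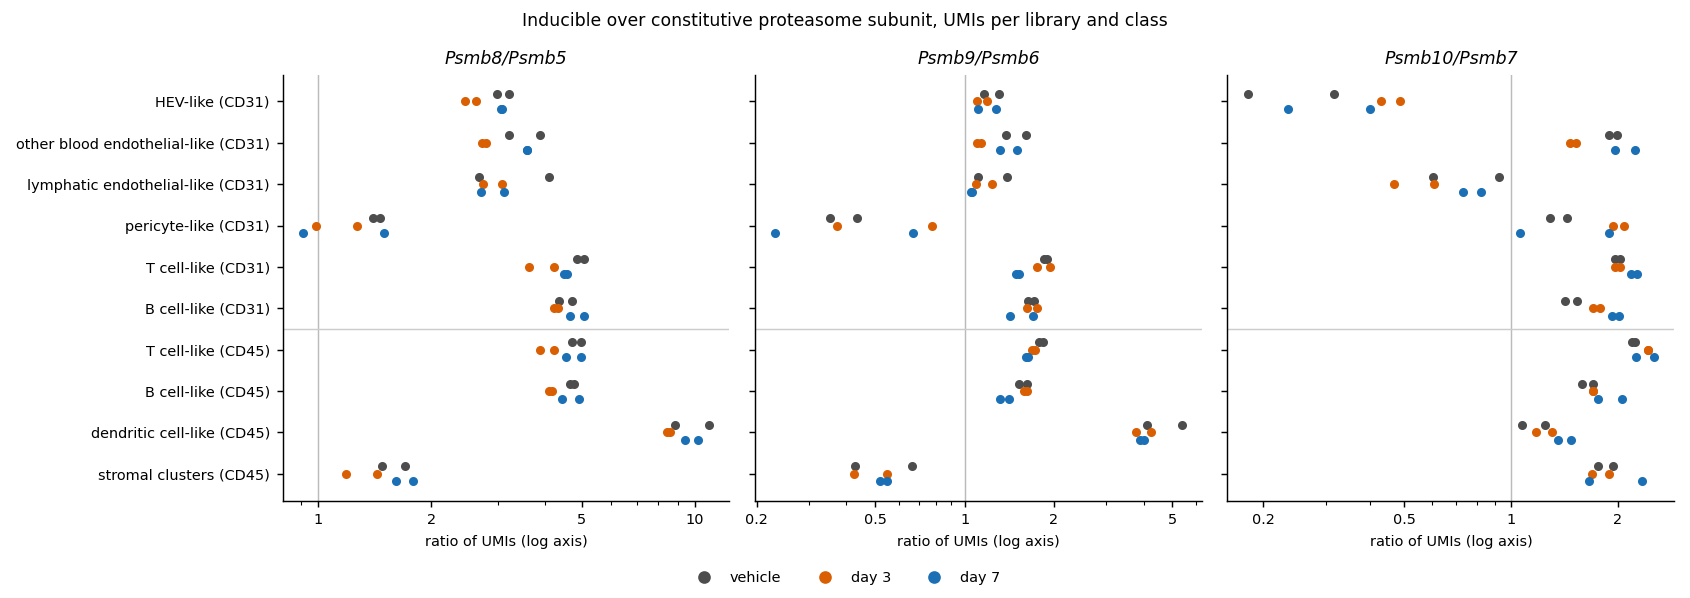
Ratio of inducible to constitutive proteasome subunit UMIs (log axis) for the pairs Psmb8 and Psmb5, Psmb9 and Psmb6, and Psmb10 and Psmb7 in each cell class, 1 point per library. Stromal and pericyte-like cells sit lowest and dendritic cell-like cells highest for the first pairs, and HEV-like cells sit lowest for Psmb10 and Psmb7, at 0.18 to 0.49.

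Psmb10, the third inducible subunit, and its constitutive partner Psmb7 gave another order. Their ratio was 0.18 to 0.49 in HEV-like cells and 0.27 to 0.75 in the lymphatic cluster with Madcam1, against 1.46 to 2.23 in the other blood endothelial-like cells. Psmb7 itself stood at 336 to 750 CPM in HEV-like cells, against 84.0 to 105 CPM in the rest of blood endothelium, a log2 difference of 2.70 (SE 0.169, edgeR adjusted p = 1.02e-07).

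Within blood endothelium the members did not share 1 order of clusters. H2-K1 was highest in HEV-like cells (2941 ± 271 CPM, SD, n = 6), and H2-D1 in the arterial-like cluster with Gja4 (2992 ± 156 CPM). Tap2 was highest in that same cluster (209 ± 24.2 CPM), and Tapbp in the arterial-like cluster with Mgp (319 ± 54.5 CPM). Capillary-like cells had little H2-Q7 (230 ± 49.5 CPM) and Nlrc5 (37.9 ± 6.16 CPM) but much Tapbp (220 ± 19.5 CPM). The cluster with Plcb1 among its top genes paired the highest Nlrc5 of blood endothelium (123 ± 19.4 CPM) with the lowest Psmb8 (206 ± 17.6 CPM) and Psmb9 (118 ± 15.5 CPM).

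Neighbours in these orders overlapped in nearly all cases. For H2-K1 in the CD31 libraries every class from HEV-like to T cell-like overlapped the next one down over the 6 libraries, and the gap below macrophage-like cells, above B cell-like and pericyte-like cells, was the only one. For Nlrc5 the only gap lay between dendritic cell-like cells (281 ± 75.1 CPM) and T cell-like cells (130 ± 16.1 CPM). In the CD45 libraries H2-Q7 had gaps below T cell-like cells, below stromal cluster 6 and below macrophage-like cells, each against the next one down only. Cluster 6 was not clear of everything lower in that order. B cell-like cells reached 263 CPM and the summed stromal clusters 252 CPM, both above its lowest value. Plasmacytoid dendritic cell-like cells (948 ± 145 CPM) and natural killer cell-like cells (820 ± 115.3 CPM) stood at the top of that order.

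In endothelial classes none of the 10 genes passed the test for a difference between oxazolone and vehicle. In HEV-like cells Psmb9 stood at 175 and 165 CPM with vehicle, at 229 and 225 CPM at day 3, and at 155 and 222 CPM at day 7. Both day 3 values lay above both vehicle values, and the log2 difference was 0.41 (SE 0.159), with edgeR adjusted p = 0.166. Psmb8 stood at 398 and 345, 463 and 453, and 339 and 457 CPM, with no overlap at day 3 and a log2 difference of 0.29 (SE 0.165, edgeR adjusted p = 0.314). Of all genes 31% were likewise higher in both day 3 libraries. H2-K1, at 2970 and 3235 CPM with vehicle and 2847 and 2454 at day 3, differed by -0.24 (SE 0.175, edgeR adjusted p = 0.429). Tap2 was at 135 to 142 CPM with vehicle, 119 to 131 at day 3 and 114 to 126 at day 7. H2-K1 and Tap2 were thus lower in both day 3 libraries, as were 27.3% of genes, and Tap2 also in both day 7 libraries, as were 20% of genes.

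In HEV-like cells 0 members were called at day 3 by edgeR (1 at an unadjusted p under 0.05 beside 25.2% of genes, 0 by DESeq2), where 2.85% of the 11803 genes were called, 1.69% higher. Cxcl10, an interferon-induced chemokine, was among those called, at 224 to 307 CPM at day 3 against 62.8 to 98.0 CPM with vehicle, a log2 difference of 1.74 (SE 0.175, edgeR adjusted p = 0.0175). It was not called without vehicle Cre-positive, day 3 Cre-negative or day 3 Cre-positive (edgeR adjusted p = 0.0512, 0.442 and 0.0734). The other 14 interferon readouts tested were not called. In blood endothelial-like cells as a whole 0 members were called at day 3 (0 at an unadjusted p under 0.05, 0 by DESeq2). There edgeR called 0.0% of 14615 genes, with 3558 at an unadjusted p under 0.05 and 831 called by DESeq2. Both day 3 libraries lay below both vehicle libraries for 5 members (H2-K1, H2-Q7, Tap2, Tapbp and Nlrc5) and above them for Psmb8, as they did for 35.8% and 24.8% of genes. The makeup of this summed class differed between libraries. Capillary-like cells were 1195 of 4148 and 1067 of 3962 with vehicle, and 1766 of 3930 and 1094 of 5226 at day 3. At day 7 they were 570 of 4011 and 786 of 2958. HEV-like cells numbered 383 and 397 with vehicle, 574 and 834 at day 3, and 737 and 324 at day 7. The part of makeup in the day 3 and day 7 values was not tested. In lymphatic endothelial-like cells 0 members were called as well (0 at an unadjusted p under 0.05, 0 by DESeq2, background 0.0%), with log2 differences from -0.09 to 0.30. There H2-K1, Tap1, Tapbp and Psmb8 were higher in both day 3 libraries than in both vehicle libraries, as were 13.8% of genes.

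At day 7 against vehicle edgeR called 0 members in blood endothelial-like, HEV-like and lymphatic endothelial-like cells (0 at an unadjusted p under 0.05 and 0 by DESeq2 in each, background 0.0% in each). The member log2 differences ran from -0.10 to 0.20, from -0.18 to 0.19 and from -0.13 to 0.15. In blood endothelial-like cells H2-K1 (2523 to 2547 against 2300 to 2458 CPM) and H2-Q7 (521 to 553 against 472 to 501 CPM), both below vehicle at day 3, lay above it in both day 7 libraries, as did 9.46% of genes. Tap2 and Nlrc5 lay below vehicle at both times, at day 7 as 20.5% of genes did. The test of whether the day 3 or day 7 difference itself differed between HEV-like and other blood endothelial-like cells, or between lymphatic and blood endothelial-like cells, called 0 members by edgeR and by DESeq2 (background 0.0% in each). At an unadjusted p under 0.05 there was 1 member at day 3 between HEV-like and other blood endothelial-like cells (8.22% of genes) and 0 in the other 3 tests.

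In bead-held immune cells the test also called 0 members at either time. In B cell-like cells all 10 log2 differences at day 3 were positive, from 0.05 to 0.37, with a median of 0.18 against 0.00 over all genes. For 7 members both day 3 libraries lay above both vehicle libraries, as they did for 18.4% of the 11692 genes tested. H2-Q7 stood at 162 and 224 CPM with vehicle and 232 and 263 CPM at day 3, a log2 difference of 0.37 (SE 0.138, edgeR adjusted p = 0.476). At day 3 edgeR called 0 members and 0.0342% of 11692 genes, 0.0257% higher (2 members and 9.37% of genes at an unadjusted p under 0.05, 0 members by DESeq2). In dendritic cell-like cells Psmb8 stood at 1287 and 926 CPM with vehicle and 1636 and 1284 CPM at day 3, overlapping ranges with a log2 difference of 0.42 (SE 0.166, edgeR adjusted p = 0.374). There edgeR called 0 members and 0.0% of genes (2 members and 12% of genes at an unadjusted p under 0.05, 0 members by DESeq2). In T cell-like cells day 3 differences ran from -0.18 to 0.10, with 0 members called (0 at an unadjusted p under 0.05, 0 by DESeq2, background 0.0%). At day 7 edgeR called 0 members in B cell-like, T cell-like and dendritic cell-like cells (1, 0 and 0 at an unadjusted p under 0.05 beside 3.72%, 2.53% and 3.71% of genes, 0 by DESeq2, background 0.0% in each).

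**Figure D4:**
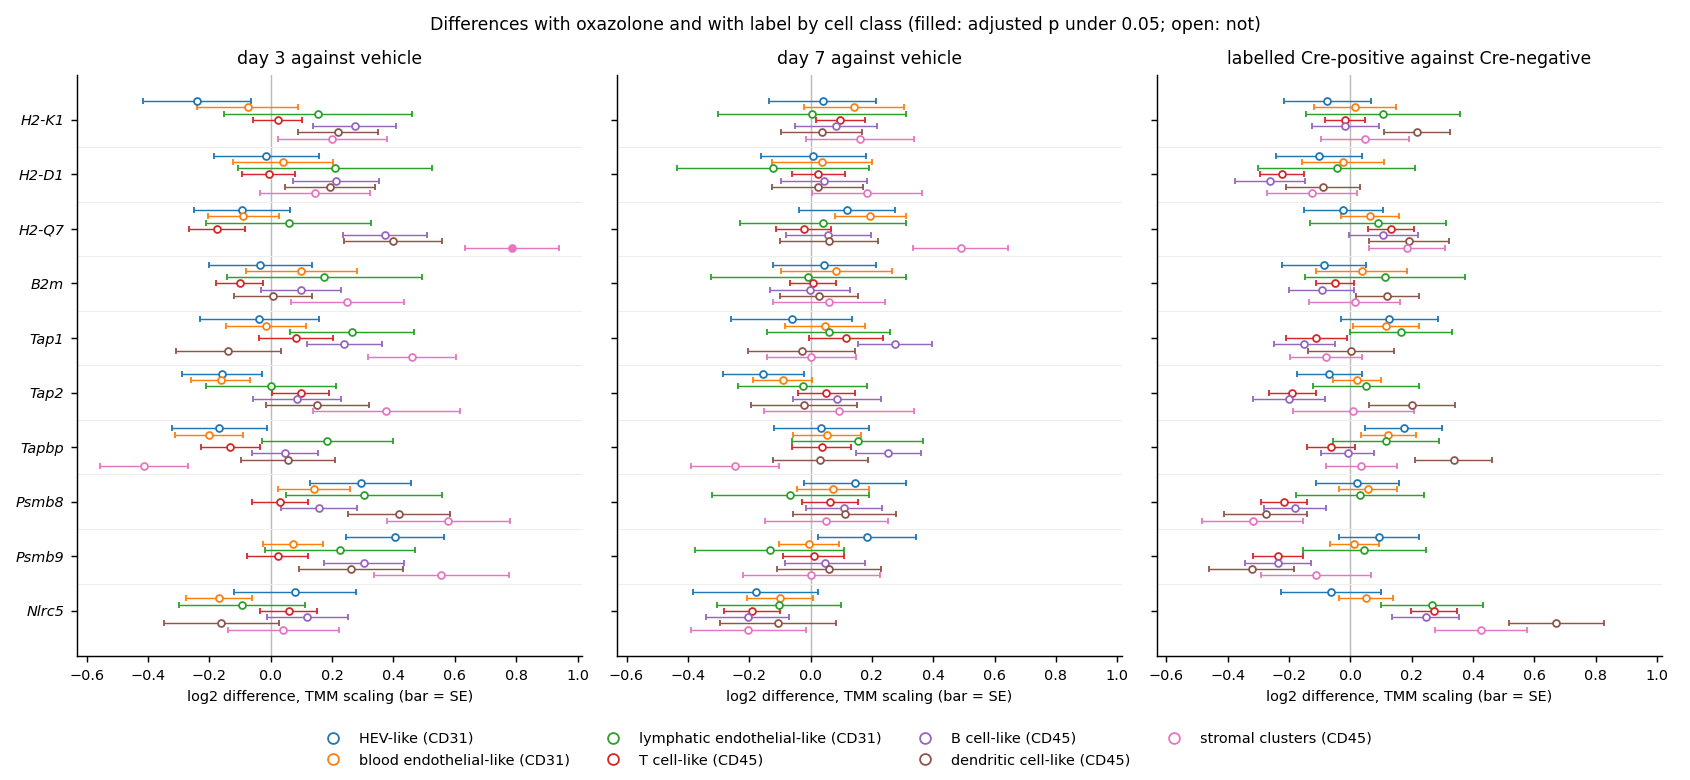
Log2 differences of the 10 genes for day 3 and day 7 against vehicle and for the label Cre-positive against Cre-negative, in each cell class (edgeR, TMM scaling; bars are 1 standard error, filled points have adjusted p under 0.05). The only filled point is H2-Q7 at day 3 in the summed stromal clusters, at 0.79, and its sign was the same by RLE and total UMI scaling.

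The 1 call under treatment was H2-Q7 in the stromal clusters at day 3. Summed over the 4 clusters it stood at 122 and 154 CPM with vehicle, 211 and 252 CPM at day 3, and 185 and 203 CPM at day 7. Both day 3 values and both day 7 values lay above both vehicle values, as they did for 27.6% and 15.2% of genes. At day 7 both libraries lay above both vehicle libraries for 4 members and below them for 1 (15.5% of genes lay below). The day 3 log2 difference was 0.79 (SE 0.154), with adjusted p = 0.0282 by edgeR's quasi-likelihood test, 0.80 by RLE and 0.75 by total UMIs, both called. It was 1 of 10 members, where 11.5% of 14964 genes were called in either direction, 5.92% higher and 5.6% lower. At an unadjusted p under 0.05 there were 5 members beside 30.7% of genes, and DESeq2 called 1 member. Without day 3 Cre-negative 0 of 15117 genes were called, and without day 3 Cre-positive 1 of 15064. At day 7 the difference was 0.49 (SE 0.154, edgeR adjusted p = 0.501), and 0 members were called (1 at an unadjusted p under 0.05 beside 6.58% of genes, 0 by DESeq2, background 0.234%).

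The makeup of the summed stromal cells moved with treatment. Cluster 6, led by Cxcl13, Mfge8 and Ccl19, held 119 and 123 cells with vehicle, 999 and 769 at day 3, and 145 and 247 at day 7. It also had the highest H2-Q7 of the 4, at 280 ± 33.6 CPM (SD, n = 6), against 215 ± 13.3 in cluster 5, 79.9 ± 29.1 in cluster 8 and 33.3 ± 13.3 in cluster 10. Within clusters 5, 6, 8 and 10 the day 3 log2 differences were -0.02, 0.02, 0.66 and 0.48, with edgeR adjusted p = 0.996, 0.967, 0.446 and 0.619, and the first 2 changed sign without 1 of 2 libraries (vehicle Cre-negative or day 3 Cre-negative), the second also by total UMIs (-0.02). In cluster 6 the values were 248 and 305 CPM with vehicle and 246 and 299 CPM at day 3, which overlap.

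Within clusters 5, 6, 8 and 10 edgeR called 0 members at day 3 (1, 0, 0 and 1 at an unadjusted p under 0.05 beside 7.12%, 21.4%, 14.9% and 11.1% of genes, 0 by DESeq2), with 0.00846%, 2.28% (1.99% lower), 0.534% and 0.0% of genes called. At day 7 it called 0 members in each (0, 0, 0 and 3 at an unadjusted p under 0.05 beside 1.45%, 1.84%, 2.12% and 4.58% of genes, 0 by DESeq2, background 0.0% in each). The summed H2-Q7 call did not pass without vehicle Cre-negative (0.67, edgeR adjusted p = 0.0677), day 3 Cre-negative (0.76, 0.355) or day 3 Cre-positive (0.85, 0.129). In cluster 8 H2-Q7 was called at day 3 without vehicle Cre-negative (1.497, edgeR adjusted p = 0.00766). Without vehicle Cre-positive 4 members of the summed clusters were called, with Tap2, Psmb8 and Psmb9 added at 0.83, 0.90 and 0.97.

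**Figure D5:**
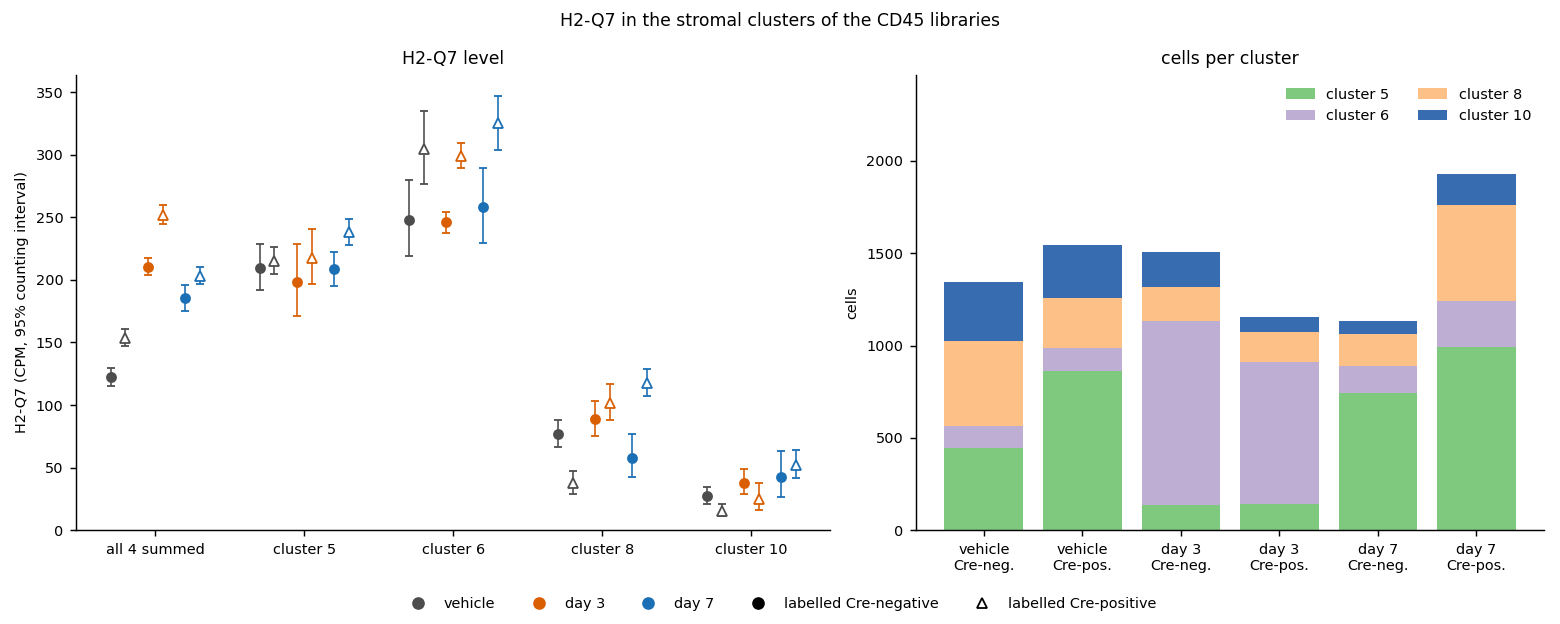
H2-Q7 level (CPM) in each of the 4 stromal clusters and in their sum, and the number of cells of each cluster, by treatment and label, 1 point or bar per library. The summed level is higher in both day 3 libraries, when cluster 6, the cluster with the highest H2-Q7, holds 999 and 769 cells.

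Other members of the summed stromal cells did not pass the test at day 3. Tap1 stood at 35.2 and 36.1 CPM with vehicle and 47.5 and 48.1 CPM at day 3, a log2 difference of 0.46 (SE 0.143, edgeR adjusted p = 0.0825). Psmb8 (0.58) and Psmb9 (0.56) had edgeR adjusted p = 0.107 and 0.143, and Tapbp, at 143 and 150 CPM with vehicle against 98.0 and 116 CPM, differed by -0.41 (edgeR adjusted p = 0.104). Both day 3 libraries lay above both vehicle libraries for 8 members and below them for 1 (Tapbp), where 27.6% of 14964 genes lay above and 31.9% below. Within cluster 6, whose cells were more numerous at day 3, Tap1 stood at 51.1 and 90.2 CPM with vehicle and 49.2 and 51.0 CPM at day 3, a log2 difference of -0.47 (edgeR adjusted p = 0.416). In the summed clusters the constitutive subunits Psmb5 and Psmb6 were called higher, by 0.88 and 0.73 (edgeR adjusted p = 0.0344 and 0.0397). Neither was called without vehicle Cre-negative (edgeR adjusted p = 0.0934 and 0.119), day 3 Cre-negative (0.388 and 0.425) or day 3 Cre-positive (0.106 and 0.109). Within clusters 5, 6, 8 and 10 the differences were 0.46, 0.57, 0.67 and 0.27 for Psmb5 and 0.07, 0.45, 0.56 and 0.41 for Psmb6, with edgeR adjusted p from 0.219 to 0.958.

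The label comparison asks whether lymph node cells of mice labelled Cre-positive, in which an autophagy gene is targeted in endothelium, differ in the pathway from those labelled Cre-negative. In endothelial classes none of the members passed the test. H2-K1 in blood endothelial-like cells stood at 2300, 2201 and 2547 CPM at vehicle, day 3 and day 7 in Cre-negative libraries. It stood at 2458, 2116 and 2523 CPM in those labelled Cre-positive. The ranges overlap, and the log2 difference was 0.02 (SE 0.134, edgeR adjusted p = 1). Over the members differences ran from -0.02 to 0.12 in blood endothelial-like, from -0.10 to 0.17 in HEV-like and from -0.05 to 0.27 in lymphatic endothelial-like cells. In these classes edgeR called 0 members (0 at an unadjusted p under 0.05, 0 by DESeq2), with 0.00684%, 0.00847% and 0.00773% of genes called. In the tests of whether the label difference differed between HEV-like and other blood endothelial-like cells, and between lymphatic and blood endothelial-like cells, 0 members were called by edgeR and by DESeq2 (1 and 0 at an unadjusted p under 0.05 beside 3.94% and 3.9% of genes, background 0.0% in each).

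In bead-held cells Nlrc5 was higher with the Cre-positive label in all 3 treatment groups (vehicle, day 3 and day 7) in 4 classes. By edgeR it did not pass the test. In dendritic cell-like cells it stood at 145 against 274 CPM with vehicle, 156 against 201 at day 3 and 137 against 248 at day 7 (Cre-negative against Cre-positive). No Cre-positive value lay below a Cre-negative one, and the log2 difference was 0.67 (SE 0.155), with edgeR adjusted p = 0.125. DESeq2 gave 0.67 with adjusted p = 0.0379, and edgeR without the filter on low counts gave 0.66 with adjusted p = 0.00621, both calls. In the Ccl22 cluster alone Nlrc5 stood at 209 against 407, 228 against 245 and 198 against 344 CPM, so the day 3 pair was the closest there too.

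In T cell-like cells the label difference of Nlrc5 was 0.27 (SE 0.0751, edgeR adjusted p = 0.227) and in B cell-like cells 0.25 (SE 0.109, edgeR adjusted p = 0.36). In the stromal clusters it was 0.43 (SE 0.151, edgeR adjusted p = 0.526). The Cre-negative T cell-like levels at vehicle, day 3 and day 7 (121, 130 and 105 CPM) all lay below the Cre-positive ones (155, 164 and 133 CPM). The classes come from the same libraries and are not independent of each other. Of all genes tested 27.4% in T cell-like, 27.1% in B cell-like, 23.5% in dendritic cell-like and 19.9% in stromal cells were likewise higher in the Cre-positive library of each treatment group. Nlrc5 was also higher in each treatment group in lymphatic endothelial-like cells of the CD31 libraries, as were 6.81% of genes. The log2 differences were 0.45, 0.11 and 0.10 with vehicle, at day 3 and at day 7. Its direction was mixed in blood endothelial-like and HEV-like cells. The Cre-positive CD45 libraries were deeper in each treatment group. Their median UMIs per cell were 5586 against 4245 with vehicle, 6193.5 against 4530 at day 3 and 5445 against 3540 at day 7. The part of depth in the label differences was not tested. Free RNA of the CD45 libraries moved the same way, with Nlrc5 at 43.1 against 58.5, 31.02 against 47.3 and 48.8 against 67.6 CPM, and with free RNA subtracted the differences were 0.68 in dendritic cell-like, 0.29 in T cell-like, 0.24 in B cell-like and 0.42 in stromal cells, none called by edgeR.

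Among the other members Psmb9 was lower in the Cre-positive library of all 3 treatment groups in T cell-like, B cell-like and dendritic cell-like cells. So were 12.2%, 11.4% and 17.6% of genes. H2-Q7 was higher in each treatment group in T cell-like, dendritic cell-like and stromal cells. In T cell-like cells H2-D1 and Tap2 were lower in each, as was Psmb8 in B cell-like cells. In dendritic cell-like cells H2-K1, B2m, Tap2 and Tapbp were higher in each. By edgeR 0 members were called in T cell-like, B cell-like, dendritic cell-like and stromal cells, with 0.0411%, 0.00855%, 0.0% and 0.0% of genes called. At an unadjusted p under 0.05 there were 5, 0, 3 and 1 members, beside 15.5%, 14%, 18.4% and 9.42% of all genes tested. DESeq2 called 0, 0, 1 and 0 members, beside 86 of 12156, 32 of 11692, 109 of 9670 and 26 of 14964 genes. In stromal clusters 5, 6, 8 and 10 edgeR and DESeq2 called 0 members with the label (0, 1, 0 and 1 at an unadjusted p under 0.05, beside 4.08%, 4.98%, 5.76% and 14% of genes), with 0.00846%, 0.0%, 0.00936% and 0.0% of genes called.

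Lists of other genes of the pathway and of interferon responses were counted by edgeR calls with TMM scaling, and were not recounted under other scalings. In HEV-like against other blood endothelial-like cells, 8 of the 11 peptide supply and loading genes were called higher and 1 lower, where 32.1% of all genes were called higher and 29.5% lower. Among them Calr, Pdia3 and Canx, chaperones of glycoprotein folding, differed by 1.00, 0.70 and 0.65 on the log2 scale. Of 18 regulators 6 were higher, with the kinase Jak1 at 1.47, and 5 lower, shares near those of all genes. Of 15 interferon readouts 3 were higher and 7 lower, with Cxcl10 at 1.72 and Rsad2, an antiviral enzyme, at -2.77. In lymphatic endothelial-like cells 12 of those 15 were called lower and 2 higher, with Oasl2 at -2.12, Gbp4 at -1.99 and Rsad2 at -3.83, beside H2-Q7 and Nlrc5 that were higher. Of all genes 30.8% were called lower there and 28.8% higher.

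Against blood endothelial-like cells, 14 of 15 interferon readouts were lower in pericyte-like cells, 13 of 15 in T cell-like cells and 15 of 15 in B cell-like cells, where 21.4%, 42.7% and 42.6% of all genes were called lower. In T cell-like against B cell-like cells of the CD45 libraries 13 of the 14 tested were higher, with Igtp, an interferon-induced GTPase, at 2.73 (36.7% of all genes were higher). In the stromal clusters against B cell-like cells 10 of 15 were higher and 2 lower, with Cxcl9 at 6.78 and Gbp2 at 2.88, where Psmb8, Psmb9, Tap1 and Nlrc5 were lower. Of all genes 41.0% were higher there and 42.3% lower. In dendritic cell-like against B cell-like cells 10 of the 11 peptide supply and loading genes were higher, with the proteasome activator subunits Psme2 at 3.07 and Psme1 at 2.09 (35.8% of all genes were higher). The class II transactivator Ciita separated B cell-like cells (200 to 286 CPM) from T cell-like cells (0.508 to 1.42 CPM), a log2 difference of -7.92. Under treatment and label the lists gave 3 calls in all, those of Cxcl10, Psmb5 and Psmb6 above.

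Over the 102 sums of 17 classes by 6 CD31 libraries, members of the pathway varied together to different degrees. These correlations of log2 CPM describe points that share libraries, depth and composition, and carry no test. The correlation with the mean of the other 9 members was 0.87 for H2-K1, 0.83 for B2m, 0.78 for H2-D1 and 0.77 for Tap1. It was 0.69 for Tapbp, 0.67 for H2-Q7, 0.64 for Psmb9 and 0.55 for Psmb8, and lowest for Nlrc5 (0.50) and Tap2 (0.33). Psmb8 with Psmb9 (0.92) and H2-K1 with H2-D1 (0.90) were the closest pairs, and Tap2 with Psmb8 (-0.11) the most distant. Of the 7346 other genes compared, the 5 most like the members' mean were H2-T22 (0.73), Rnf181 (0.73), Necap2 (0.72), Naip2 (0.72) and H2-Q6 (0.71). H2-T22 and H2-Q6 are themselves nonclassical class I heavy chain genes.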

How the data were processed

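The deposited files hold counts of UMIs per gene and barcode for each of the 12 libraries, unnormalized. Per the submitters' processing notes they come from Cell Ranger 7.0.1 and mm10, while the file headers name another major version of the software. The members and lists were chosen with earlier results of these data known.

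Cells needed 1000 UMIs, 500 genes and no more than 10% mitochondrial UMIs, and the highest doublet scores were removed at 0.8% per 1000 barcodes (4.78 to 9.31% of a library). Those removed were shallower, by median UMIs, than the cells kept in 2 of the CD31 libraries. Cells were clustered per fraction with scanpy 1.11.5 and leidenalg 0.10.2 (2000 variable genes, 30 components, 20 neighbours, resolution 1), without the members, their lists or any H2 gene, and named from marker lists. Some clusters stayed unnamed, and marker counts alone did not decide which. In the CD45 libraries cluster 9 (1321 cells, 8 of 11 T cell and 4 of 8 natural killer cell markers) is in no class. Cluster 18 (430 cells, 4 of 11 T cell markers) was counted as T cell-like. Counts were summed per library and class and tested with edgeR 4.0.16 (TMM scaling, filterByExpr, quasi-likelihood test) under R 4.3.3, with p-values adjusted over all genes by Benjamini-Hochberg at 0.05. Treatment and label entered 1 additive model with 2 residual degrees of freedom, and class comparisons carried the library as a block. The fitting script was tested on simulated data. CPM are the UMIs of a gene over the class sum, scaled to 1e6. The standard errors (SE) given with edgeR were derived from the test, as the absolute log2 difference over the square root of the F statistic. Genes named are the members and, of each list, up to 4 called genes by smallest p (otherwise the 2 with the largest change). Genes compared for likeness had a mean of at least 20 CPM (pseudocount 1). Alternatives were RLE and total UMI scaling, no low-count filter, DESeq2 1.42.0, 2000 UMIs per cell, no doublet removal and free RNA subtracted (10%). Class comparisons were also fitted with no block. Each library was left out in turn for treatment and class comparisons, and each treatment's pair of libraries for label comparisons. Tests of whether a difference differed between classes had RLE scaling, no low-count filter and DESeq2 only. The gene mRFP, listed in 4 libraries, was dropped. Counting error alone would allow finer differences than those between libraries.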

Additional observations from a re-analysis of the deposited data

Results flagged for a closer look

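For 7 pairs of values every library of one class moved one way and every library of the other the opposite way under the same contrast. The difference between the classes was not tested for these 7. At day 3 against vehicle H2-K1 differed by -0.24 on the log2 scale in HEV-like cells and by 0.15 in lymphatic endothelial-like cells. In blood endothelial-like cells H2-K1 and Tapbp were lower in both day 3 libraries and in lymphatic endothelial-like cells higher. Of all genes tested in both of these classes 3.08% moved in opposite directions in this way. For this pair of classes the difference was tested, at 0.21 for H2-K1 and 0.37 for Tapbp (edgeR adjusted p = 0.883 and 0.793), and was not called.

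B2m at day 3 differed by -0.10 in T cell-like cells, by 0.10 in B cell-like cells and by 0.25 in the stromal clusters, which gave 2 of the pairs. Tap1 at day 3 differed by -0.14 in dendritic cell-like cells, by 0.24 in B cell-like cells and by 0.46 in the stromal clusters, another 2 pairs. Tapbp at day 7 differed by 0.25 in B cell-like cells and by -0.25 in the stromal clusters. With the label, Tap2 differed by -0.19 in T cell-like cells and by 0.20 in dendritic cell-like cells. None of these values was called by edgeR. Of all genes tested in both classes of a pair, 3.36% moved in opposite directions in this way for the H2-K1 pair, 2.38% and 6.86% for the B2m pairs, 3.53% and 5.36% for the Tap1 pairs, 2.89% for the Tapbp pair and 1.72% for the Tap2 pair.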

How the results depend on the processing

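Of 532 counts of members called under an alternative, 522 were within 1.5 times the main count. Most main counts for treatment and label were 0, and a 0 under the alternative was taken as within that limit. The limit ignores which members were called and in which direction. HEV-like against other blood endothelial-like cells passed it by total UMI scaling, although calls of single members changed. Total UMI scaling and all results on the stromal clusters were chosen after seeing the data. Leaving out 1 library gave 0 to 4 members for the stromal clusters at day 3 (main count 1), 0 to 1 for stromal clusters 6 and 8 at day 3 and for cluster 8 at day 7 (main count 0). Without the low-count filter 1 member was called in cluster 10 at day 7 and 1 with the label in dendritic cell-like cells, where DESeq2 also called 1. In class comparisons leave-outs gave 6 to 7 members for HEV-like, 6 for lymphatic, 10 for pericyte-like, 8 to 9 for T cell-like and for B cell-like cells against blood endothelium. They gave 9 to 10 for T cell-like, 10 for dendritic cell-like and 6 to 8 for stromal against B cell-like cells.

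Of 1742 values of single members 28 changed sign, some of them losing a call as well, and of the others 33 lost a call and 24 gained one; the cause was not tested. By total UMIs these were, in HEV-like cells, Tap1 (-0.05), Psmb8 (-0.07), Psmb9 (-0.138) and Nlrc5 (-0.041), in lymphatic cells H2-K1 (0.087), H2-D1 (0.007), B2m (0.116) and Tap1 (0.035), Psmb9 in T cell-like against blood endothelial-like cells (-0.09), H2-D1 in stromal against B cell-like cells (0.022) and H2-Q7 in cluster 6 at day 3 (-0.022). Without doublet removal they were Psmb9 in B cell-like against blood endothelial-like cells (0.062), Tap2 in stromal against B cell-like cells (-0.016) and H2-Q7 in cluster 6 at day 3 (-0.019). Psmb9 in B cell-like against blood endothelial-like cells gave 0.007 without the block, and B2m in lymphatic cells 0.002 with free RNA subtracted. Leaving out 1 library gave ranges across 0 for Psmb9 in B cell-like against blood endothelial-like cells (-0.051 to 0.034), B2m in lymphatic cells (-0.033 to 0.014), Tapbp in HEV-like cells (-0.082 to 0.004) and Tap2 in stromal against B cell-like cells (-0.006 to 0.145). At day 3 they were -0.064 to 0.49 for Psmb9 in lymphatic cells, -0.016 to 0.833 for Tap2 in the stromal clusters, -0.066 to 0.028 for H2-Q7 in cluster 5 and, in cluster 6, from -0.067 to 0.119. Nlrc5 in the stromal clusters at day 7 ran from -0.416 to 0.035. The HEV-like call of Nlrc5 was lost in 7 alternatives besides total UMIs, at edgeR adjusted p = 0.0546 to 0.0979 (DESeq2 0.0587).

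Over all genes DESeq2 called as many as edgeR or more for treatment and label within a class. Some counts were equal, such as 1 and 1 with the label in lymphatic endothelial-like cells. Among the larger gaps at day 3 were 831 against 0 in blood endothelial-like, 37 against 4 in B cell-like and 49 against 0 in dendritic cell-like cells. Others at day 3 were 401 against 255 in cluster 6 and 129 against 57 in cluster 8. At day 7 it was 152 against 35 in the stromal clusters. With the label it was 86 against 5 in T cell-like and 109 against 0 in dendritic cell-like cells. No paired analysis was possible because the labels give no replicate numbers, while the class comparisons carry the library as a block. Planned results on fibroblast-like cells of the CD31 libraries were not run, as no cluster met that name. Depth limits the pericyte-like values, with 26 to 53 cells per library.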
